A study of Mus musculus with 14 samples.

Results

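R-spondins (Rspo1, Rspo2, Rspo3, Rspo4), Dickkopf proteins (Dkk1, Dkk2, Dkk3) and Frizzled-related proteins (Sfrp1, Sfrp2, Frzb) are secreted modulators of Wnt signalling, and the expression of these 10 genes was followed here through 5 sorted cell populations of the mouse forelimb bud. The genes were chosen by name as members of the 3 families, and all 10 were found among the 24454 genes of the count table by Entrez identifier. Wnt ligands bind a Frizzled receptor together with LRP5 or LRP6, which stabilises beta-catenin and turns on TCF/LEF target genes. R-spondins bind LGR receptors and keep the membrane E3 ligases ZNRF3 and RNF43 from removing Frizzled, so they raise the response to Wnt. DKK1 occupies LRP5 and LRP6 and blocks the pathway, whereas DKK2 can block or activate it depending on the cell, and DKK3 is a divergent member of the family whose part in Wnt signalling is less settled. SFRP1, SFRP2 and FRZB (also known as sFRP3) carry a Frizzled-like domain and bind Wnt ligands outside the cell. In the limb bud, Wnt signals from the ectoderm keep the mesenchyme proliferating and hold back cartilage formation.

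The study sorted cells from pooled forelimb buds of mouse embryos that carry a Sox9 IRES-EGFP allele on a mixed Swiss Albino background, to compare limb bud mesenchymal progenitors (LMPs) with cells on the way to cartilage. Poly(A) RNA of 14 libraries was sequenced. EGFP reports Sox9, so S9+ marks EGFP-positive and S9- EGFP-negative cells, and Pαhi marks high surface PDGFRα. All cells were negative for 7AAD and for the lineage markers CD31, Ter119, CD45, EpCam, Gr1 and CD11b. S9-JAG1+ LMPs (SCA-1 negative), S9-Pαhi LMPs (JAG1 and SCA-1 negative) and S9+Pαhi osteochondrogenic progenitors (OCPs) of E10.5 (embryonic day) had 3 libraries each. S9-SCA-1+ cells (JAG1 negative) of the same stage had 2, which carry the replicate numbers 2 and 3. S9+Pαhi cells of E11.5, named chondroblasts for their Col2a1 expression, had 3. Their labelled gate is that of the OCPs, so that the chondroblast population and the later stage cannot be told apart in any comparison. In every population, a lower level can mean fewer expressing cells or less RNA per cell, which bulk libraries do not tell apart.

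The libraries held 20316583 to 29162751 counts, and 3 counts, taken as the floor of detection, corresponded to 0.101 to 0.149 CPM (counts per 1000000 of the scaled library total). The gated genes followed the labels in part. Jag1 had its highest mean in S9-JAG1+ LMPs (296 CPM), followed by chondroblasts (119), and was at 11.8 to 19.7 in the others. Sox9 was at 437 CPM in OCPs and 535 in chondroblasts against 11.0 to 62.3 in the S9- populations. Col2a1 was at 989 CPM in OCPs and 1536 in chondroblasts. In S9-SCA-1+ cells it was at 163 CPM, above S9-Pαhi (89.7) and S9-JAG1+ LMPs (25.9). Ly6a, which encodes SCA-1, was at only 3.23 CPM in S9-SCA-1+ cells, where Pdgfra was lowest (34.4 CPM). S9-SCA-1+ cells also held 1494 and 1489 CPM over 5 myogenic genes led by Met, against at most 10.4 in the other libraries, and their replicate 3 held 2637 CPM over 5 red blood cell genes led by Hbb-y, against 94.98 in replicate 2. Further libraries stood apart for the genes described here. S9-JAG1+ replicate 1 had 42.2 CPM over 5 mesothelium and flank genes led by Gata6, against 11.6 and 13.1 in the other two, and chondroblast replicate 3 had the highest sum over 6 chondrogenic genes led by Col2a1 (3308 CPM, against 2190 and 2662). Whether these differences have a part in the results below was not tested.

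Limb ectoderm and its apical ridge are a known source of Rspo2 and Dkk1, and all gates excluded EpCam-positive cells. The sum over 10 ectodermal genes, led by Krt18, was 6.24 to 23.4 CPM and was highest in chondroblasts (20.01 to 23.4). It was 6.82 to 10.3 in S9-Pαhi LMPs, where Rspo4 and Dkk1 were highest. Fgf8 did not pass 3.80 CPM in any library, and Wnt7a did not pass 3 counts. Endothelial genes, led by Kdr, summed to at most 15.1 CPM, leukocyte genes, led by Ptprc, to at most 0.855, and neural crest genes, led by Erbb3, to at most 28.2.

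All 10 genes passed the filter on low counts that kept 15125 genes for testing. A call needed both an adjusted p no higher than 0.1 in edgeR's quasi-likelihood test and a log2 fold change of 1.2 or more in either direction. The study used the same numbers as limits, but its methods do not say that p was adjusted. In the joint test over the 5 populations all 10 genes reached an adjusted p of at most 0.1, as did 74.8% of all tested genes. Their adjusted p ranged from 7.1e-10 for Dkk1 to 0.0010 for Rspo1. Between pairs of populations, 53 of the 100 combinations of gene and pair were called, against 11.8% over all tested genes. The pairs ranged from 2 of 10 genes between S9-Pαhi LMPs and OCPs (4.84% of all tested genes) to 8 of 10 between S9-Pαhi LMPs and S9-SCA-1+ cells, with 1 gene higher and 7 lower in S9-SCA-1+ cells (4.96% and 5.58% of all tested genes). Comparisons of one population with the other 4 contrast the mean of log levels, so that each of the 4 others weighs the same however low it is, and the 5 comparisons share all their libraries.

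**Figure D1:**
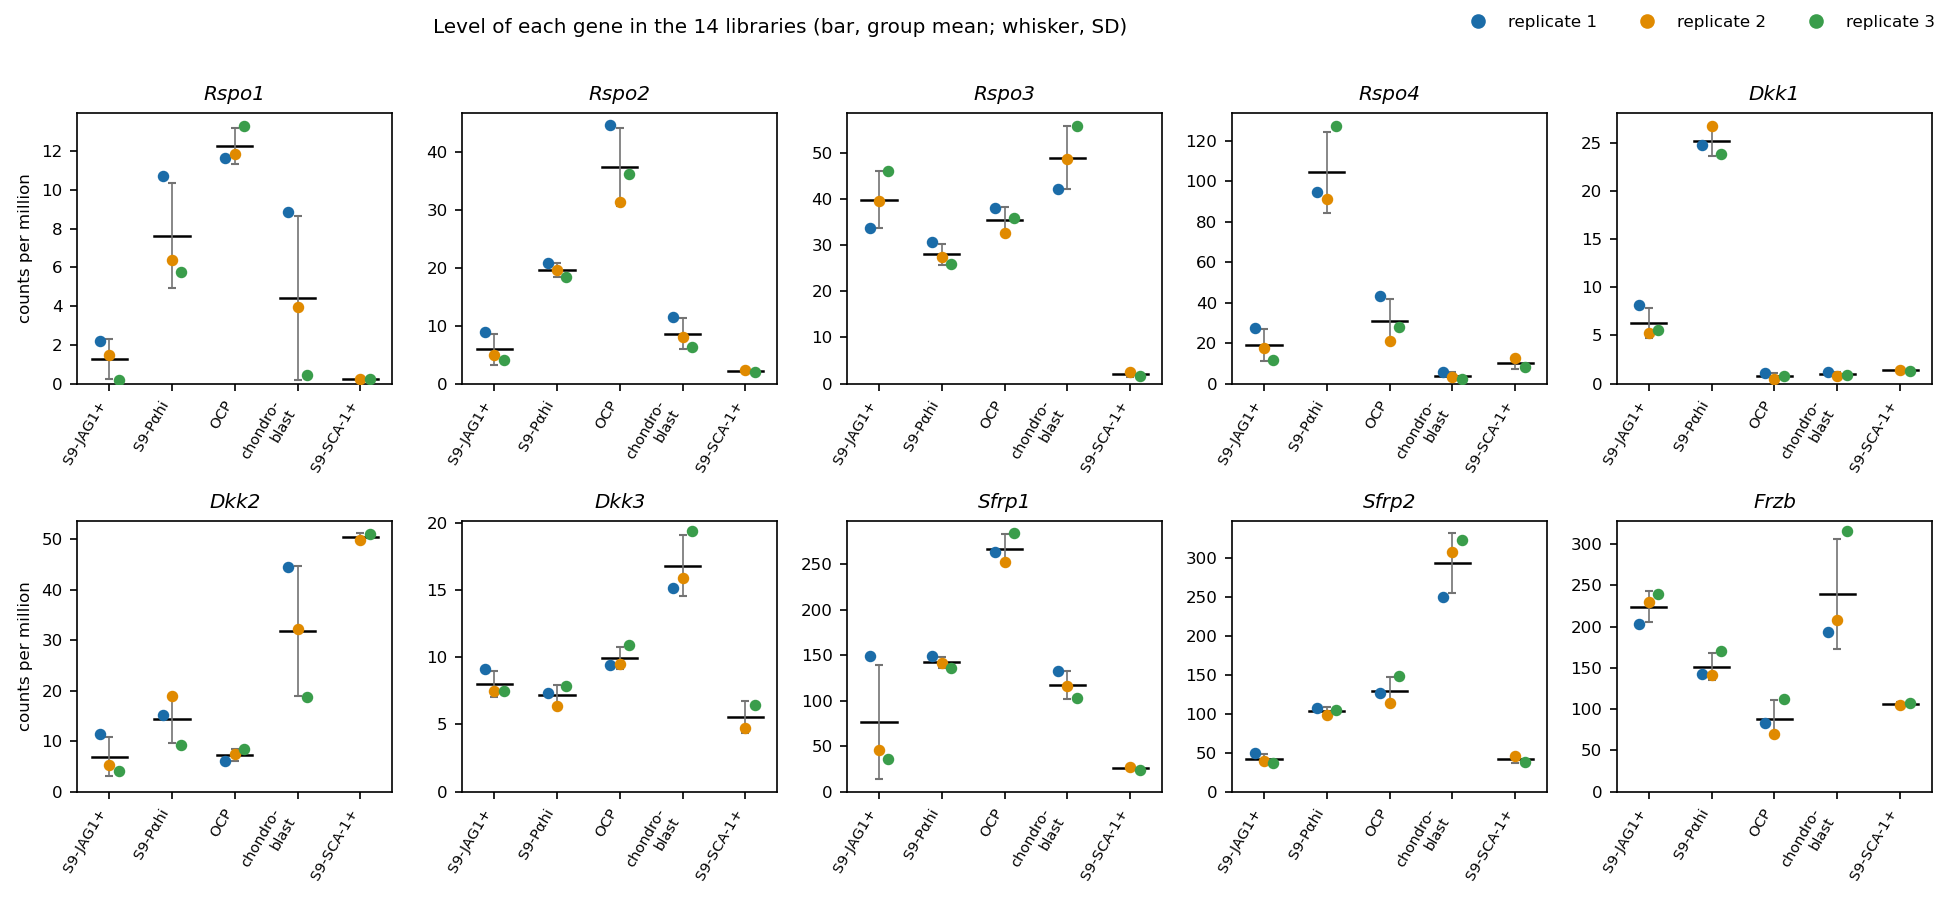
Level of each gene in CPM (vertical axis, from 0, a scale for each panel) in the 14 libraries, grouped by population (horizontal axis). Points are libraries coloured by replicate number, bars the means of the populations and whiskers the SD; Rspo4 and Dkk1 stood highest in S9-Pαhi LMPs, Rspo2 and Sfrp1 in OCPs, Sfrp2 in chondroblasts, and Dkk2 in S9-SCA-1+ cells.

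Each R-spondin had its own distribution. Rspo4 was the R-spondin of S9-Pαhi LMPs, Rspo1 and Rspo2 were highest in OCPs, and the mean levels of Rspo3 lay within 1.75-fold of each other in all populations other than S9-SCA-1+ cells. S9-SCA-1+ cells had the lowest mean levels of Rspo1, Rspo2 and Rspo3, and Rspo4 was lowest in chondroblasts.

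Rspo4 (chr2:151842647-151874668, GRCm38) was measured at 94.9, 91.2 and 128 CPM in S9-Pαhi LMPs. In OCPs it was at 43.2, 21.2 and 27.8 CPM, and in S9-JAG1+ LMPs at 27.7, 17.7 and 11.9. S9-SCA-1+ cells had 12.4 and 7.98 CPM and chondroblasts 5.72, 3.35 and 2.16. All S9-Pαhi libraries lay above all others, and all chondroblast libraries below all others. The level in S9-Pαhi LMPs was above the mean of the other 4 populations by 3.09 ± 0.24 (SE) on the log2 scale (adjusted p = 1.1e-06), and above that in OCPs, the next population, by 1.77 ± 0.33 (adjusted p = 0.0032), while the level in chondroblasts was below the mean of the others by 2.89 ± 0.34 (adjusted p = 7.5e-06). The mean of S9-Pαhi LMPs, 105 ± 19.99 CPM (SD, n = 3), was 27.9 times that of chondroblasts. Between these ends, OCPs, S9-JAG1+ LMPs and S9-SCA-1+ cells followed each other without a called step, with log2 differences of 0.69 (adjusted p = 0.12) and 0.90 (adjusted p = 0.12). The step from S9-SCA-1+ cells down to chondroblasts was called (1.43, adjusted p = 0.0091), but not without chondroblast replicate 3 (1.198, just under the fold limit) or without S9-SCA-1+ replicate 2 (1.08).

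Rspo2 (chr15:43020788-43171594) was at 44.7, 31.5 and 36.2 CPM in OCPs and 20.8, 19.7 and 18.5 in S9-Pαhi LMPs. Chondroblasts had 11.6, 7.97 and 6.28 CPM, S9-JAG1+ LMPs 8.95, 4.86 and 4.00, and S9-SCA-1+ cells 2.34 and 1.99. OCPs and S9-Pαhi LMPs each stood clear of all other libraries, whereas chondroblasts and S9-JAG1+ LMPs overlapped. OCPs were higher than the other populations by 2.45 ± 0.18 (adjusted p = 5.2e-07) and S9-Pαhi LMPs by 1.29 ± 0.19 (adjusted p = 0.00045), and S9-SCA-1+ cells were lower by 2.68 ± 0.31 (adjusted p = 1.1e-05). OCPs exceeded S9-Pαhi LMPs by 0.93 ± 0.25, which had an adjusted p of 0.024 and was under the fold limit. Without the S9-SCA-1+ population the excess in S9-Pαhi LMPs was 0.67 and no longer called. From OCPs to chondroblasts Rspo2 was lower by 2.12 ± 0.26 on the log2 scale (adjusted p = 5.6e-05). Chondroblasts against S9-Pαhi LMPs were at -1.19 ± 0.25 (adjusted p = 0.0018), just under the fold limit. This difference passed the limit under several alternatives, most clearly without chondroblast replicate 1 (-1.49).

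Rspo1 (chr4:124986401-125009102) was the R-spondin with the widest spread among replicates. It was at 11.6, 11.8 and 13.3 CPM in OCPs and at 10.7, 6.35 and 5.78 in S9-Pαhi LMPs. The chondroblast libraries had 8.88, 3.93 and 0.432 CPM, a 20.6-fold range, and the S9-JAG1+ libraries 2.18, 1.47 and 0.159, a 13.8-fold range. In S9-SCA-1+ cells each library held 6 counts (0.210 and 0.214 CPM). OCPs alone did not overlap any other population. Rspo1 was called higher in OCPs (2.81 ± 0.52, adjusted p = 0.0014) and S9-Pαhi LMPs (1.96 ± 0.54, adjusted p = 0.031) than in the other 4 populations, and lower in S9-SCA-1+ cells (-4.47 ± 1.06, adjusted p = 0.0041). The call in S9-Pαhi LMPs did not hold without their replicate 1 (1.63, adjusted p = 0.18) or without the S9-SCA-1+ population (0.91, adjusted p = 0.28). The difference between OCPs and S9-Pαhi LMPs was 0.68 ± 0.63 (adjusted p = 0.50). Chondroblasts were called higher than S9-JAG1+ LMPs (1.82 ± 0.75, adjusted p = 0.049) although their libraries overlap, and without S9-JAG1+ replicate 3 (1.25, adjusted p = 0.16) or chondroblast replicate 1 (0.80, adjusted p = 0.38) that call was lost.

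Rspo3 (chr10:29453106-29535867) was at 42.2, 48.5 and 55.8 CPM in chondroblasts, 33.7, 39.5 and 46.0 in S9-JAG1+ LMPs, 38.0, 32.6 and 35.9 in OCPs, and 30.5, 27.4 and 26.0 in S9-Pαhi LMPs. S9-SCA-1+ cells had 2.52 and 1.53 CPM. The order of the first 4 populations rests on steps of 0.30, 0.16 and 0.34 on the log2 scale, none of which was called. Over wider gaps in that order, chondroblasts were above S9-Pαhi LMPs by 0.80 ± 0.15 (adjusted p = 0.00057) and above OCPs by 0.46 ± 0.15 (adjusted p = 0.031), and S9-JAG1+ were above S9-Pαhi LMPs by 0.51 ± 0.15 (adjusted p = 0.024), all under the fold limit. By contrast, the step from S9-Pαhi LMPs down to S9-SCA-1+ cells was 3.78 ± 0.21 (adjusted p = 1.5e-08). Against the mean of the other 4, S9-SCA-1+ cells were lower by 4.20 ± 0.20 (adjusted p = 1.5e-09) and chondroblasts higher by 1.54 ± 0.11 (adjusted p = 8.1e-08). Without the S9-SCA-1+ libraries in the fit the excess in chondroblasts was 0.51 and no longer called. Of the exon bases of Rspo3, 13.1% overlap an antisense gene (Gm48159), and the sources do not say whether counting used the strand.

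Divided by exon length, which allows levels of different genes to be compared, the 4 R-spondins summed to 65.8 ± 7.06 CPM per kilobase in S9-Pαhi LMPs (SD, n = 3) and to 45.6 ± 7.73 in OCPs. The sums were 27.1 ± 2.20 in S9-JAG1+ LMPs, 26.9 ± 1.19 in chondroblasts and 5.91 ± 1.69 in S9-SCA-1+ cells (n = 2). Rspo4 made up 66.7% ± 6.02 of the sum in S9-Pαhi LMPs and 72.5% ± 1.69 in S9-SCA-1+ cells, whose sum was far lower. Rspo3 made up 61.9% ± 13.9 in S9-JAG1+ LMPs and 76.0% ± 13.2 in chondroblasts. OCPs were the most even, with 32.8% Rspo3, 27.7% Rspo4, 24.5% Rspo2 and 14.9% Rspo1. S9-JAG1+ LMPs and chondroblasts thus had close sums per kilobase with Rspo3 in the lead in both, but in every chondroblast library Rspo4 was at most 8.51% of the sum and in every S9-JAG1+ library at least 19.7%.

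**Figure D2:**
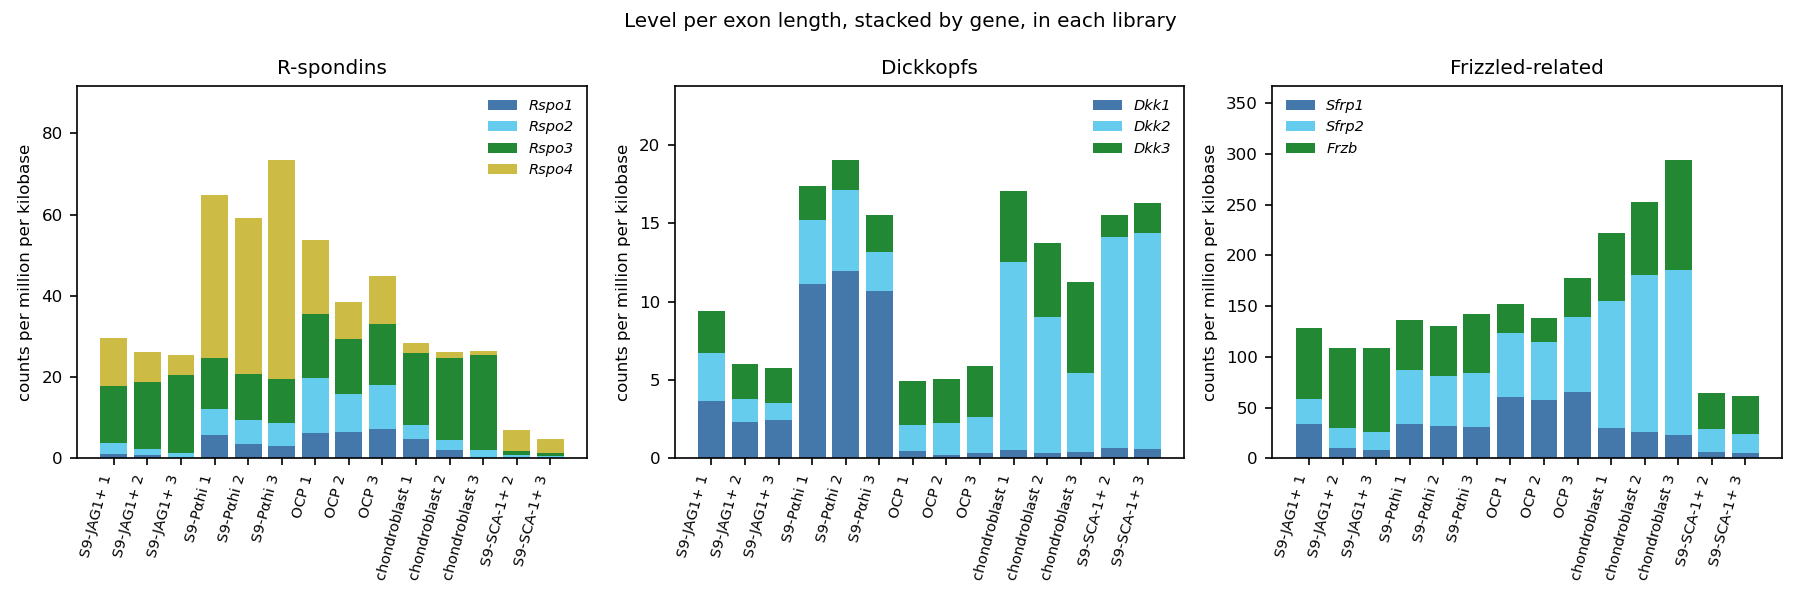
Level in CPM per kilobase of exon (vertical axis, from 0) of the R-spondins, the Dickkopf genes and the Frizzled-related genes, stacked by gene, in each of the 14 libraries (horizontal axis, population and replicate number). Rspo4 made up 61.7 to 73.4% of the R-spondin bar in S9-Pαhi LMPs, Dkk2 84.6 to 86.8% of the Dickkopf bar in S9-SCA-1+ cells, and Sfrp2 55.2 to 61.2% of the Frizzled-related bar in chondroblasts.

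The Dickkopf genes separated the populations in a different way. Dkk1 was highest in S9-Pαhi LMPs, intermediate in S9-JAG1+ LMPs and at 0.523 to 1.43 CPM elsewhere, Dkk2 was highest in S9-SCA-1+ cells and chondroblasts, and Dkk3 had the smallest SD of log2 CPM over the 14 libraries among the 10 genes (0.56), with its highest level in chondroblasts.

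Dkk1 (chr19:30545876-30549496) was at 24.8, 26.8 and 23.8 CPM in S9-Pαhi LMPs and at 8.13, 5.24 and 5.51 in S9-JAG1+ LMPs. S9-SCA-1+ cells had 1.43 and 1.35 CPM, chondroblasts 1.21, 0.753 and 0.903, and OCPs 1.10, 0.523 and 0.796. The S9-Pαhi and the S9-JAG1+ libraries each stood clear of all others. S9-Pαhi LMPs were above the mean of the other 4 populations by 3.95 ± 0.15 (adjusted p = 2.3e-09) and above S9-JAG1+ LMPs by 2.00 ± 0.20 (adjusted p = 6.5e-06). S9-JAG1+ LMPs were in turn above S9-SCA-1+ cells, the next in order, by 2.17 ± 0.26 (adjusted p = 2.1e-05). They were also called higher than the mean of the other 4 (1.46 ± 0.16, adjusted p = 8.8e-06), because that mean is one of logs: in CPM they averaged 6.29 against 7.07 for the mean of the others, which S9-Pαhi LMPs dominate. The levels in OCPs, chondroblasts and S9-SCA-1+ cells did not differ by a called step, and against the mean of the others they were lower by 2.22, 1.93 and 1.26 on the log2 scale. The last of these calls is at the fold limit and was lost without S9-JAG1+ replicate 1 (-1.1999, just short of the limit) and without OCP replicate 1 (-1.19). Between the EGFP-negative and EGFP-positive cells with high PDGFRα at E10.5, Dkk1 was lower in OCPs by 4.94 ± 0.25 (adjusted p = 4.3e-08), the steepest of the pairwise differences of Dkk1. Dkk1 and Rspo4 were the only 2 of the 10 genes called between these populations, against 4.84% of all tested genes.

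The promoter of Dkk1 is shown because Dkk1 is known as a target of the pathway that it blocks. The 250 bases before its annotated start (chr19:30549497-30549746, minus strand, RefSeq on GRCm38.p6) read as follows, with TCF/LEF words in capitals.
Dkk1: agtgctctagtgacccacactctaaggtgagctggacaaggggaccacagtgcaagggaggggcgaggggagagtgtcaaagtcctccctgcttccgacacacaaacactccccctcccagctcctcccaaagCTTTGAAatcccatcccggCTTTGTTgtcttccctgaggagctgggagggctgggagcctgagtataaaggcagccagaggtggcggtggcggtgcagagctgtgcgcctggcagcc
The words searched on both strands were CTTTGAA, the same word ending in T (CTTTGAT), the word CTTTGTA, and its form ending in T (CTTTGTT). Dkk1 held 2, which begin 117 and 98 bases before the start, on the strand printed. A word was found in 14.8% of all 32851 promoter windows of this length in the table, and in none of the windows of the other 5 members with an entry (Rspo1, Rspo4, Dkk2, Sfrp2 and Frzb). These matches are letters in a window and were not tested for binding.

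Dkk2 (chr3:132085266-132180304) was at 49.8 and 51.0 CPM in S9-SCA-1+ cells, followed by chondroblasts with 44.5, 32.2 and 18.7. It was at 15.2, 18.9 and 9.26 CPM in S9-Pαhi LMPs, 6.00, 7.42 and 8.46 in OCPs, and 11.3, 5.32 and 4.08 in S9-JAG1+ LMPs. The chondroblast libraries ranged widely and the lowest of them overlapped S9-Pαhi LMPs. S9-SCA-1+ cells were higher than the mean of the others by 2.03 ± 0.28 (adjusted p = 5.3e-05), and S9-JAG1+ LMPs (-1.56 ± 0.32, adjusted p = 0.0013) and OCPs (-1.46 ± 0.32, adjusted p = 0.0044) were lower. Those 2 lower calls were lost when the S9-SCA-1+ libraries were left out of the fit (-1.12 and -1.02). The excess of chondroblasts over the mean of the others was 1.1997 ± 0.26 (adjusted p = 0.0012), just below the fold limit. It passed the limit under many of the alternatives, most clearly without the S9-SCA-1+ population (1.81). Among single libraries, it passed without chondroblast replicate 3 (1.43), S9-JAG1+ replicate 1 (1.34), S9-Pαhi replicate 1 (1.21) or 2 (1.26), or S9-SCA-1+ replicate 3 (1.202). Library totals (1.30) and a filter of 1 CPM in at least 3 libraries (1.21) also brought it past the limit. From OCPs to chondroblasts Dkk2 was higher by 2.12 ± 0.37 (adjusted p = 0.00091). S9-Pαhi were above S9-JAG1+ LMPs by 1.08 ± 0.37 (adjusted p = 0.052), under the fold limit, but passed it without S9-JAG1+ replicate 1 (1.63, adjusted p = 0.0059) or without S9-Pαhi replicate 3 (1.31, adjusted p = 0.027).

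Dkk3 (chr7:112116019-112159482) was at 15.2, 15.9 and 19.4 CPM in chondroblasts, above every other library. OCPs had 9.41, 9.51 and 10.9 CPM, S9-JAG1+ LMPs 9.12, 7.46 and 7.45, S9-Pαhi LMPs 7.32, 6.39 and 7.87, and S9-SCA-1+ cells 4.72 and 6.41. The highest mean was 3.02 times the lowest. The rise in chondroblasts against the mean of the others was 1.16 ± 0.11 (adjusted p = 1.1e-06), under the fold limit, and Dkk3 was called against no mean of the other 4. That rise passed the limit without chondroblast replicate 1 (1.21) or S9-SCA-1+ replicate 3 (1.22). Dkk3 was called in 2 pairs, higher in chondroblasts than in S9-Pαhi LMPs (1.23 ± 0.15, adjusted p = 2.6e-05) and lower in S9-SCA-1+ cells than in chondroblasts (-1.59 ± 0.18, adjusted p = 4.7e-06). The former was lost in 6 of the 14 fits with a library left out.

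Per kilobase, the 3 Dickkopf genes summed to 17.3 ± 1.75 CPM in S9-Pαhi LMPs, 15.9 ± 0.557 in S9-SCA-1+ cells and 14.0 ± 2.92 in chondroblasts, and to 7.07 ± 2.04 in S9-JAG1+ LMPs and 5.29 ± 0.521 in OCPs. The 3 populations with the highest sums differed in the leading gene. Dkk1 made up 65.2% ± 3.08 in S9-Pαhi LMPs, and Dkk2 85.7% ± 1.58 in S9-SCA-1+ cells and 59.5% ± 13.1 in chondroblasts. In OCPs Dkk3 led with 56.0% ± 0.972.

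Averaged over the 14 libraries, the Frizzled-related genes had the highest levels per kilobase of the 10, and they were present in every library. Within single populations this order had exceptions, since the mean of Rspo4 in S9-Pαhi LMPs (44.1 CPM per kilobase) was above that of Sfrp1 (32.5), and that of Dkk2 in S9-SCA-1+ cells (13.6) was also above that of Sfrp1 (5.84). Sfrp1 was highest in OCPs, Sfrp2 in chondroblasts, and Frzb in chondroblasts and S9-JAG1+ LMPs, with its lowest level in OCPs.

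Sfrp1 (chr8:23411383-23449632) was at 264, 252 and 284 CPM in OCPs, above every other library. S9-Pαhi LMPs had 149, 142 and 136 CPM, chondroblasts 133, 116 and 103, and S9-SCA-1+ cells 27.1 and 24.0. The S9-JAG1+ libraries had 149, 45.3 and 35.5 CPM, so that replicate 1 lay with the S9-Pαhi LMPs and the other two just above the S9-SCA-1+ cells. OCPs were higher than the mean of the others by 1.82 ± 0.26 (adjusted p = 0.00022) and S9-SCA-1+ cells lower by 2.41 ± 0.42 (adjusted p = 0.00040). From OCPs to chondroblasts Sfrp1 was lower by 1.187 ± 0.37 (adjusted p = 0.028, a 2.28-fold difference in mean CPM), just under the fold limit, and it passed the limit under the DESeq2 test (-1.201), with the replicate number as a block (-1.22) and in 4 of the 14 fits with a library left out (-1.21 to -1.302). S9-JAG1+ replicate 1, the library with raised Gata6, moved the comparisons that involve S9-JAG1+ LMPs. With it, S9-JAG1+ LMPs were below the mean of the others by 0.43 ± 0.30 (adjusted p = 0.27), and without it by 1.35 ± 0.12 (adjusted p = 1.6e-06). The difference of S9-Pαhi from S9-JAG1+ LMPs went from 0.89 (adjusted p = 0.10) to 1.82 (adjusted p = 9.1e-07), and that of chondroblasts from 0.61 (adjusted p = 0.16) to 1.54 (adjusted p = 8.8e-07). The difference of OCPs from S9-JAG1+ LMPs was called either way and went from 1.8001 to 2.72. The excess of S9-JAG1+ LMPs over S9-SCA-1+ cells dropped from 1.58, which was called, to 0.66 and was then under the fold limit, and without S9-SCA-1+ replicate 3 the comparison was not called either (-1.502 for S9-SCA-1+ cells against S9-JAG1+ LMPs, adjusted p = 0.12).

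Sfrp2 (chr3:83765750-83774314) was at 251, 309 and 324 CPM in chondroblasts and at 126, 114 and 149 in OCPs. S9-Pαhi LMPs had 107, 98.4 and 105 CPM, S9-JAG1+ LMPs 49.8, 39.3 and 36.8, and S9-SCA-1+ cells 45.4 and 37.9. The chondroblast libraries were above all others, and the S9-JAG1+ and S9-SCA-1+ libraries overlapped at the bottom. Chondroblasts were higher than the other populations by 2.08 ± 0.10 (adjusted p = 1.5e-09), and S9-JAG1+ LMPs (-1.43 ± 0.12, adjusted p = 4.1e-07) and S9-SCA-1+ cells (-1.45 ± 0.14, adjusted p = 2.0e-06) were lower. From S9-JAG1+ to S9-Pαhi LMPs the step was 1.30 ± 0.14 (adjusted p = 9.9e-06), from S9-Pαhi LMPs to OCPs 0.33 ± 0.13 (adjusted p = 0.12), and from OCPs to chondroblasts 1.182 ± 0.13 (adjusted p = 3.0e-05, under the fold limit). The last step passed the limit with library totals (1.25), without OCP replicate 3 (1.28) and without chondroblast replicate 1 (1.27). Of the exon bases of Sfrp2, 16.1% overlap an antisense gene (Gm26771).

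Frzb (chr2:80411970-80447396) was at 193, 208 and 316 CPM in chondroblasts, 203, 230 and 239 in S9-JAG1+ LMPs, and 142, 141 and 171 in S9-Pαhi LMPs. S9-SCA-1+ cells had 105 and 108 CPM and OCPs 82.8, 69.3 and 113. The S9-JAG1+ libraries lay above all S9-Pαhi, OCP and S9-SCA-1+ libraries and within the range of the chondroblasts. No population was called against the mean of the other 4, where the log2 differences ran from -0.96 ± 0.16 in OCPs (adjusted p = 0.00058) to 0.84 ± 0.14 in chondroblasts (adjusted p = 0.00015). S9-SCA-1+ cells against chondroblasts were at -1.17 ± 0.21 (adjusted p = 0.00036), just under the fold limit. That difference passed the limit with library totals (-1.28), with the replicate block (-1.21) and without chondroblast replicate 1 (-1.29) or 2 (-1.24). The 2 pairs called were OCPs below S9-JAG1+ LMPs (-1.34 ± 0.19, adjusted p = 6.3e-05) and chondroblasts above OCPs (1.44 ± 0.19, adjusted p = 9.8e-05), and the latter fell under the fold limit without chondroblast replicate 3 (1.16). Frzb and Sfrp1 thus had opposite ends in OCPs, where Frzb had its lowest and Sfrp1 its highest mean.

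Per kilobase, the 3 Frizzled-related genes summed to 256 ± 35.9 CPM in chondroblasts, 156 ± 20.3 in OCPs, 136 ± 6.06 in S9-Pαhi LMPs, 115 ± 11.52 in S9-JAG1+ LMPs and 63.0 ± 2.40 in S9-SCA-1+ cells. In S9-JAG1+ LMPs Frzb made up 67.4% ± 11.6 of the sum, and in S9-SCA-1+ cells 57.8% ± 3.40. In chondroblasts Sfrp2 made up 57.6% ± 3.16. OCPs had Sfrp2 (41.5%) and Sfrp1 (39.3%) at like shares with 19.2% Frzb, and S9-Pαhi LMPs had Frzb and Sfrp2 at 38.1% and 38.0%.

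Read by population, the calls against the mean of the other 4 populations gave the following picture. In S9-Pαhi LMPs 4 of the 10 genes were higher (Dkk1, Rspo4, Rspo1 and Rspo2) and none lower, against 1.53% of all tested genes called higher and 2.31% lower. In OCPs 3 were higher (Rspo1, Rspo2 and Sfrp1) and 2 lower (Dkk1 and Dkk2), against 3.37% and 1.64% of all genes. In chondroblasts Sfrp2 and Rspo3 were higher and Rspo4 and Dkk1 lower, against 11.0% and 1.71%. S9-SCA-1+ cells had Dkk2 higher and 6 genes lower (Rspo1, Rspo2, Rspo3, Dkk1, Sfrp1 and Sfrp2), against 4.46% and 6.80%. In S9-JAG1+ LMPs Dkk1 was higher and Dkk2 and Sfrp2 lower, against 2.88% and 7.70%. With the S9-SCA-1+ population left out of the fit, Rspo1 (-2.56, adjusted p = 0.0089) and Rspo2 (-1.64, adjusted p = 0.00011) were called lower in S9-JAG1+ LMPs. The lower call of Dkk2 was then lost (-1.12). Without S9-JAG1+ replicate 1 the S9-JAG1+ count went from 3 to 6, with Rspo2 (-1.29) and Sfrp1 (-1.35) added as lower and Rspo3 (1.27) as higher, and without chondroblast replicate 3 it was 5. The median log2 difference of the 10 genes was -1.35 in S9-SCA-1+ cells, -0.30 in S9-JAG1+ LMPs, 0.61 in S9-Pαhi LMPs, 0.74 in OCPs and 0.91 in chondroblasts, against -0.01 to 0.05 over all tested genes. The low levels in S9-SCA-1+ cells enter the mean of the others in each of the 4 other comparisons.

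**Figure D3:**
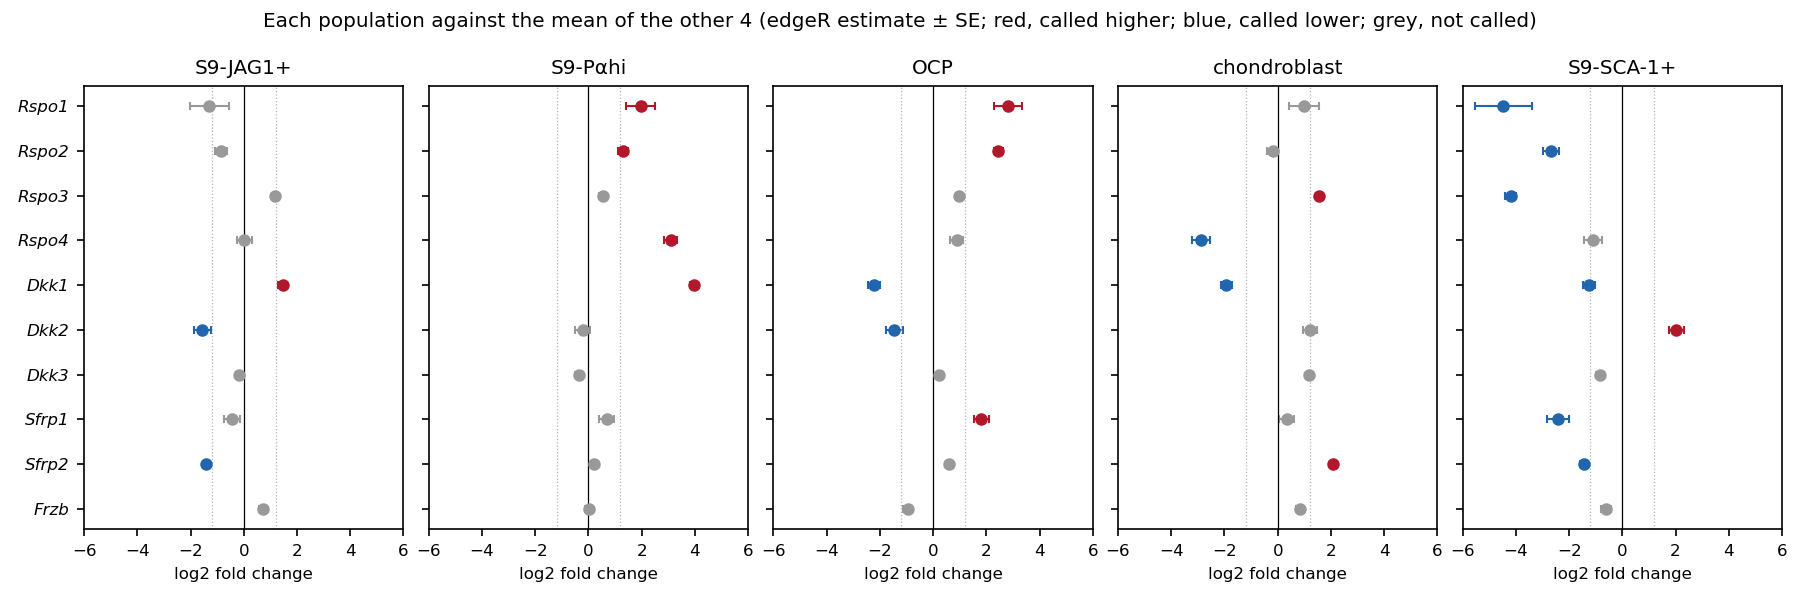
Log2 fold change (horizontal axis) of each of the 10 genes (vertical axis) in each population against the mean of the other 4, as estimated by edgeR with its SE. Red points were called higher, blue points lower and grey points not called, and dotted lines mark the fold limit of 1.2; the 4 red points of S9-Pαhi LMPs and the 6 blue points of S9-SCA-1+ cells are the longest runs in one direction.

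Between the 2 S9- progenitor populations, 5 genes were higher in S9-Pαhi than in S9-JAG1+ LMPs (Rspo1, Rspo2, Rspo4, Dkk1 and Sfrp2) and none lower, against 4.42% and 2.58% of all tested genes. Without S9-JAG1+ replicate 1, Dkk2 and Sfrp1 were called higher as well (1.63 and 1.82). From OCPs of E10.5 to chondroblasts of E11.5, Rspo2 and Rspo4 were lower and Dkk2 and Frzb higher, against 1.16% and 6.60% of all tested genes. Sfrp1 (-1.187) and Sfrp2 (1.182) fell just short of the fold limit in this step.

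The receptors and other regulators on which these proteins act were read from a list of 40 Wnt pathway genes, of which 35 passed the filter. The 5 others (Rnf43, Kremen2, Sfrp5, Dkk4 and Sost) did not pass 0.599 CPM in any library. LRP5, LRP6 and KREMEN1, to which DKK1 binds, showed no call in any population, with log2 differences from the mean of the others between -0.27 and 0.26. Their means were 145 to 196 CPM for Lrp5, 243 to 303 for Lrp6 and 38.3 to 47.8 for Kremen1. Znrf3, the E3 ligase that R-spondins hold off, was not called either (23.8 to 36.4 CPM).

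The R-spondin receptors did differ. Lgr5 was at 37.1 and 45.5 CPM in S9-SCA-1+ cells and 8.72 to 10.7 in chondroblasts, against at most 2.78 in the other libraries. It was called in all 5 populations, with 4.06 ± 0.14 in S9-SCA-1+ cells (adjusted p = 4.9e-11) and -2.51 ± 0.21 in OCPs (adjusted p = 1.5e-06) at the ends. Thus the receptor gene was highest in the population where the 4 R-spondin genes had their lowest sum. Lgr4 was lower in S9-JAG1+ LMPs (36.0 ± 3.23 CPM, log2 difference -1.30, adjusted p = 1.8e-07) than in the other populations (67.8 to 106 CPM).

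Of the 35 tested genes, 2 were higher and 8 lower in S9-JAG1+ LMPs, with either direction at 10.6% of all tested genes. The counts were 3 and 5 in S9-Pαhi LMPs (3.84%), 2 and 5 in OCPs (5.01%), 8 and 5 in chondroblasts (12.7%), and 6 and 2 in S9-SCA-1+ cells (11.3%). In S9-JAG1+ LMPs the largest changes were lower Fzd8 (-1.95), lower Sostdc1 (-1.85), a BMP and Wnt antagonist, and higher Fzd10 (1.72). In S9-Pαhi LMPs the secreted Wnt inhibitor Wif1 was higher (1.86 ± 0.16, 33.4 to 45.6 CPM) and Shisa3, of a family that holds Frizzled back in the cell, lower (-2.13 ± 0.25).

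Wif1 was thus called higher in S9-Pαhi LMPs beside Dkk1, but unlike Dkk1 it was also higher in chondroblasts (1.27, adjusted p = 1.8e-05). Notum, a secreted enzyme that inactivates Wnt ligands, was at 0.589 to 0.841 CPM in chondroblasts against 2.50 to 22.2 in all other libraries (-3.69 ± 0.26, adjusted p = 6.8e-08). Sp5, a transcription factor gene known to respond to beta-catenin, was at 84.6 and 87.2 CPM in S9-SCA-1+ cells, and no library of another population passed 3.33. In chondroblasts it was at or under 3 counts, and it was called lower there (-4.59, and -2.67 without the S9-SCA-1+ population). It was also called lower in S9-Pαhi LMPs (-2.66) and OCPs (-2.33), where no library passed 0.380 CPM, but these calls rested on the level in S9-SCA-1+ cells: without that population the differences were -0.59 (adjusted p = 0.64) and -0.24 (adjusted p = 0.89). The call in S9-Pαhi LMPs was also lost without their replicate 1 (-2.58, adjusted p = 0.13), their replicate 3 (-2.56, adjusted p = 0.13) or chondroblast replicate 2 (-2.48, adjusted p = 0.197), and that in OCPs without their replicate 3 (-1.97, adjusted p = 0.14) or chondroblast replicate 2 (-2.18, adjusted p = 0.17). Cer1 in chondroblasts (0.616 to 0.785 CPM, no other library above 3 counts), Dkkl1 in OCPs (0.162 to 1.38 CPM) and Sfrp4 in S9-SCA-1+ cells (0.734 and 0.997 CPM) were called at levels near the limit of the counts, and the call of Dkkl1 was lost without S9-SCA-1+ replicate 3 (1.82, adjusted p = 0.12).

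The 7 genes known as beta-catenin targets had a median log2 difference of 0.75 in S9-JAG1+ and 0.59 in S9-Pαhi LMPs, 0.51 in S9-SCA-1+ cells, -0.74 in OCPs and -1.16 in chondroblasts. Tcf7 was called higher in S9-JAG1+ LMPs (1.27) and lower in OCPs (-1.24) and chondroblasts (-2.26), and Lef1 lower in chondroblasts (-1.25). Sp5, described above, went another way. It was the only call of the 7 in S9-Pαhi LMPs, where it was lower, and 1 of 2 called higher in S9-SCA-1+ cells. Single values of Nkd1, Nkd2 and Ccnd1 are not given here. Axin2, the feedback inhibitor of the pathway, was at 143 ± 23.7 CPM in S9-Pαhi and 124 ± 27.4 in S9-JAG1+ LMPs against 51.6 ± 15.5 in chondroblasts, and its log2 differences stayed under the fold limit in all populations, from -0.98 in chondroblasts to 0.86 in S9-Pαhi LMPs.

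**Figure D4:**
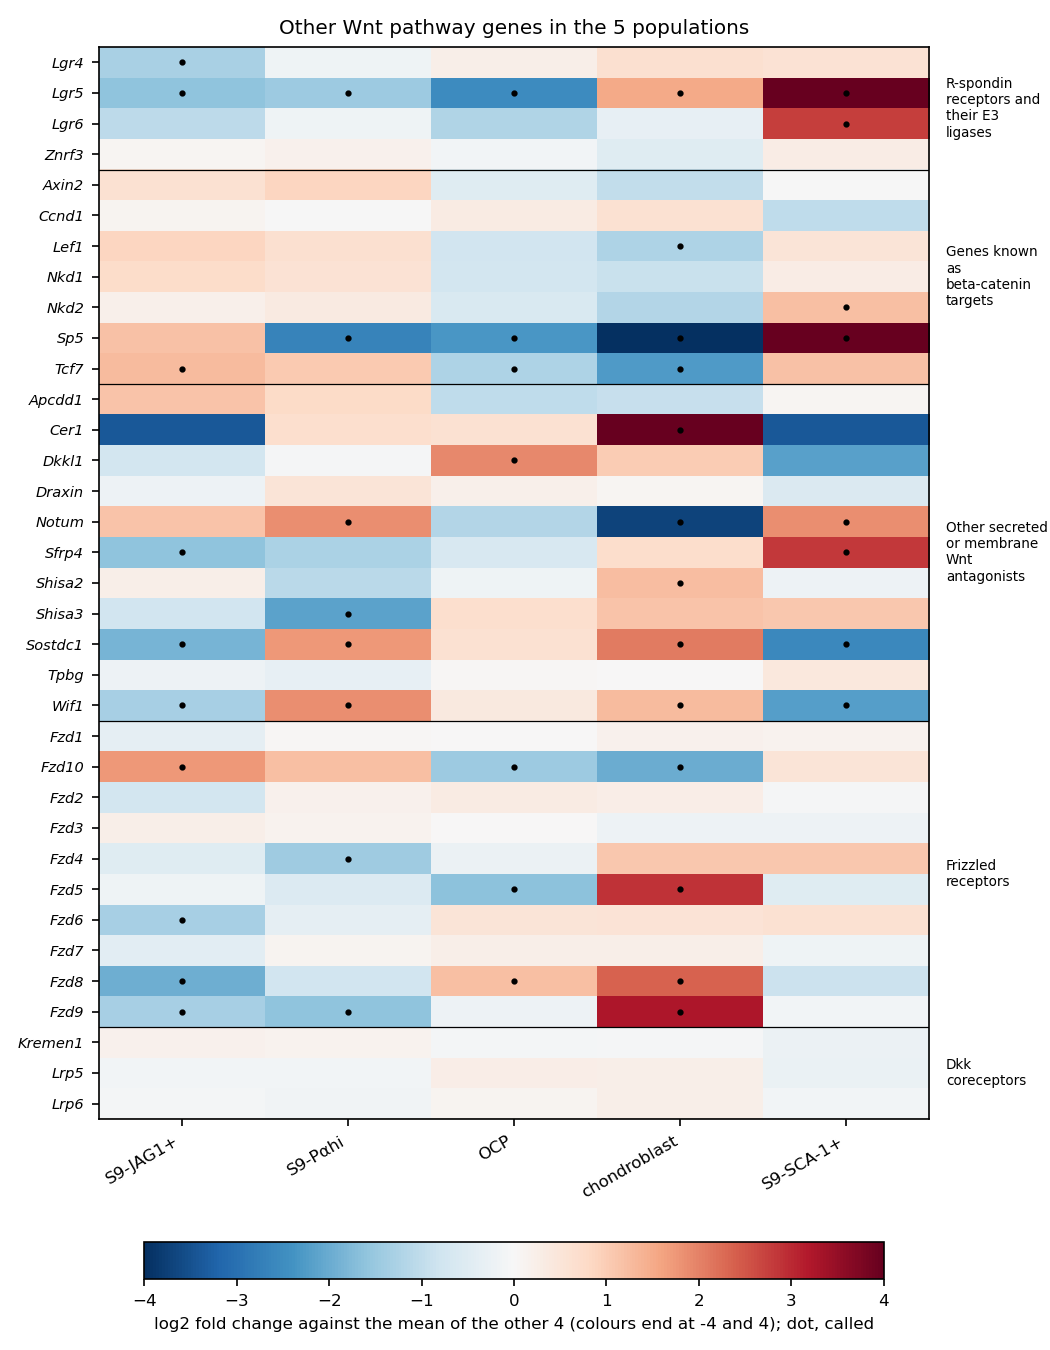
Log2 fold change against the mean of the other 4 populations (colour, ending at -4 and 4). The vertical axis holds the 35 tested genes of the Wnt pathway list, by group, and the horizontal axis the 5 populations. The list includes Sfrp4, a further Frizzled-related gene. A dot marks a called gene; Lgr5 has a dot in all 5 populations and the Dkk coreceptors have none, and the strong colours of Sp5 and Cer1 rest on populations at or under 3 counts.

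To describe which other genes had like profiles, the log2 CPM of each gene were centred on their mean over the 14 libraries, and the root mean square difference was taken against the 11882 tested genes whose log2 CPM averaged 1 or more. This is a description of likeness over libraries that share populations. The difference is not scaled to a gene's own SD of log2 CPM, which was 0.56 for Dkk3, 1.78 for Rspo4 and 2.00 for Dkk1. A gene that varies more tends to lie further from its nearest genes. Within the 10 genes the closest pair was Rspo2 and Sfrp1 (0.45 on the log2 scale). The profile of Rspo2 was closest to Hgf (0.41), which encodes hepatocyte growth factor, and Lhfp (0.45), and that of Sfrp1 to Dlk1 (0.41), with Rspo2 next and then Myrf (0.47). Hgf was at 42.2 to 54.3 CPM in OCPs, 26.2 to 35.3 in S9-Pαhi LMPs and at most 9.42 elsewhere. Dlk1 shared with Sfrp1 the high S9-JAG1+ replicate 1 (151 CPM, against 63.2 and 62.7).

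Rspo1 was closest to the homeobox gene Hoxc5 (0.60), the secreted kinase gene Pkdcc (0.66) and Hoxc4 (0.76). Hoxc5 followed the unequal chondroblast libraries of Rspo1, with 40.5 and 32.3 CPM in replicates 1 and 2 and 3.77 in replicate 3. Among the chondroblast libraries, Pkdcc and Hoxc4 were also lowest in replicate 3 (61.3 and 4.24 CPM), while some S9-JAG1+ libraries and both S9-SCA-1+ libraries lay lower still. The genes nearest to Dkk1 were Msx1os (0.80), the homeobox gene Msx1 (0.82) and the transcription factor gene Prdm1 (0.94). Msx1os and Msx1 are an antisense pair whose reads may not be told apart. Msx1 was at 226 to 295 CPM in both S9-JAG1+ and S9-Pαhi LMPs, and thus without the step that Dkk1 showed between them.

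The genes nearest to Rspo4 were Prrt4 (0.84), a (0.87), which encodes agouti signalling protein, and Dpep1 (0.89). Rspo3 was closest to Plxna4 (0.34), Ddr2 (0.39) and the forelimb transcription factor gene Tbx5 (0.43), all of which were low in S9-SCA-1+ cells. Dkk2 was closest to Stc1 (0.55), Me1 (0.57) and Rps6ka4 (0.58), and Dkk3 to St6galnac6 (0.18), Slc18b1 (0.19) and Iqsec2 (0.22). Sfrp2 was closest to Tspan11 (0.24), Sema4f (0.25) and Cd82 (0.28), all highest in chondroblasts, and Frzb to Nfatc1 (0.23), Anxa5 (0.29) and Magee2 (0.30), all higher in S9-JAG1+ LMPs and chondroblasts than in OCPs.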

How the data were processed

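The deposited file holds whole-number read counts per gene and library, without normalization, that the authors made by aligning single reads with STAR to mm10 and counting reads that start in RefSeq mRNA exons with QuasR; use of strand is not stated. All 14 library columns were used, and the file's exon lengths served for CPM per kilobase. Symbols and positions came from RefSeq GRCm38.p6 (24374 of 24454 identifiers matched).

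In R 4.3.3, edgeR 4.0.16 kept genes with filterByExpr (15125), scaled with TMM and fitted the population means over all libraries for quasi-likelihood F tests. P values were adjusted by Benjamini-Hochberg over all tested genes. The SE is the log2 fold change divided by the square root of F, and log2 CPM used a prior count of 2. The procedure was tested on simulated data. Python 3.11.15 was used for annotation, promoters and figures.

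The genes and lists were chosen with earlier results of these data known. Named were the 10 genes, up to 3 called pathway genes with the largest changes per comparison with the other 4 populations, the highest gene of each marker list and the 3 genes closest in profile to each of the 10. Lgr4, Tcf7, Lef1, Axin2, Znrf3, the coreceptors and a few marker and gate genes were named in addition, after their values were seen. Replicate libraries are numbered as such in the labels, and p values measure the spread between them. Replicates differed by more than sampling noise (chi-square per degree of freedom 7.80 to 76.3). The highest value was between OCP replicates 1 and 2 and the next between OCP replicates 2 and 3 (40.0). All other pairs were at most at 22.7. Alternatives were DESeq2 1.42.0 size factors and test, library totals, other filters and limits, the replicate number as a block, and leaving out each library or the S9-SCA-1+ population.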

Additional observations from a re-analysis of the deposited data

How the results depend on the processing

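No called value turned its direction under any alternative, and the counts stayed within 1.5 times the reported ones under DESeq2 size factors, library totals, both other filters, the DESeq2 test and the stricter p limit of 0.05. Differences under the fold limit could turn. Rspo3 against the mean of the others was 0.53 in S9-Pαhi LMPs and 0.96 in OCPs, and its lowest values among the alternatives were -0.54 and -0.10. This turn came with the S9-SCA-1+ population, low in Rspo3, left out. With 1 library left out the lowest values were 0.46 and 0.88. Without the fold limit, 6 instead of 3 of the 10 genes were called in S9-JAG1+ LMPs, 9 instead of 5 in OCPs and 7 instead of 4 in chondroblasts, and of the pathway list 25, 19, 20, 28 and 22 genes in S9-JAG1+ LMPs, S9-Pαhi LMPs, OCPs, chondroblasts and S9-SCA-1+ cells. More of the 10 genes were called in S9-Pαhi LMPs and S9-SCA-1+ cells as well. The shares of all tested genes given above hold with the fold limit and cannot be set beside these counts. No share without the fold limit is given here, so these counts are not read as a result about the genes. In the joint test, which has no fold limit, 74.8% of all tested genes passed. Without the S9-SCA-1+ population, 2 genes instead of 4 were called in S9-Pαhi LMPs (Rspo1 and Rspo2 were lost) and 3 instead of 7 pathway genes in OCPs. Leaving out 1 library at a time gave for the 10 genes 3 to 6 calls in S9-JAG1+ LMPs, 3 to 4 in S9-Pαhi LMPs, 5 to 5 in OCPs, 4 to 6 in chondroblasts, 6 to 8 in S9-SCA-1+ cells, 51 to 58 over pairs of populations and 10 to 10 in the joint test, and the pathway list 9 to 11, 7 to 9, 5 to 8, 11 to 16 and 7 to 10 in the same order of populations. Library totals in place of TMM shifted the median of all genes in chondroblasts by 0.10 against the mean of the others, and Dkk2 (1.30) and Dkk3 (1.26) then passed the fold limit there.

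Deviations from the population means were correlated between libraries of different populations. Same-numbered pairs had a median correlation of -0.005 (26 pairs, 4 above 0.1) and differently numbered pairs of -0.003 (52 pairs, 6 above 0.1). Of the 14 libraries, 5 correlated best with their own number. Single pairs reached 0.31 with the same number (S9-JAG1+ and OCP replicate 1) and 0.41 with different numbers (S9-Pαhi replicate 3 and OCP replicate 1). Deviations sum to 0 within a population and chondroblasts are of another stage, so these values cannot settle which libraries were paired. Pairing other than by number was not modelled. With the replicate number as a block, the 10 genes gave 4, 4, 5, 4 and 6 calls in S9-JAG1+ LMPs, S9-Pαhi LMPs, OCPs, chondroblasts and S9-SCA-1+ cells, 57 over pairs and 10 in the joint test, and the pathway list 10, 8, 7, 13 and 8. The block added Rspo1 in S9-JAG1+ LMPs (-1.49) and removed Dkk1 in S9-SCA-1+ cells (-1.12).

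Depth limits Rspo1 in S9-SCA-1+ cells and S9-JAG1+ replicate 3 (4 to 6 counts). S9-SCA-1+ cells have 2 libraries, so that leaving 1 out assumes that the lone library varies like the other populations.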
